A study of Schizosaccharomyces pombe with 8 samples.

Results

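The 29 elements described here lie on the strand opposite to a tRNA, rRNA, snoRNA or snRNA gene, and were chosen by position alone from the 17962 elements in a deposited table of fission yeast small RNA. An element was taken if it was a 5′ or 3′ UTR, a long or intergenic non-coding RNA or an unspliced transcript, shared at least 40 nt with such a gene on the other strand, and overlapped none by 40 nt on its own strand. Of 16170 elements of these classes, 29 met the rule, 49 had a structural RNA gene on their own strand, 16087 overlapped none, and 5 overlapped one in another way and were not used. The 29 lie at 17 places, because a UTR and its transcript were often both listed: 7 elements face 4 tRNA genes, 3 face 2 genes of 5S rRNA, 15 face 9 snoRNA genes and 4 face 2 snRNA genes. By class they are 13 unspliced transcripts, 7 3′ UTRs, 5 5′ UTRs, 2 long non-coding RNAs and 2 intergenic RNAs.

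The study sequenced RNA of 18 to 28 nt from Schizosaccharomyces pombe strains with altered Paf1 complex genes, with 1 library per strain. The labels give 7 mutants and a wild type. The mutants are Paf1Δ, Paf1-G104R and Paf1-Q264Stop (written Paf-1Q264Stop there), Cdc73-G313R, Leo1Δ and Leo1-W157Stop, and Rot1-Q472Stop. Every strain, the wild type too, carries what the labels write as ade6-hp+. Cultures grew in YES medium at 30 °C to an OD600 of 0.5, and 25 µg of small RNA entered size selection. With 1 library per strain there is no replicate check, and no p-value is given. Values are log2 levels as deposited, which have a floor of 3 and scale with reads per length. Read numbers were recovered from these levels, and the 95% Clopper-Pearson intervals given with them reflect counting error alone, since PCR copies of a molecule are not independent. Recovered reads, summed over elements that partly overlap, ran between 917883 in Cdc73-G313R and 3156333 in Paf1-Q264Stop, against 6422517 in wild type.

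Reads over the Paf1 complex genes, without UTRs, did not match every label. Over prf1, the Rtf1 homologue, 823 reads lay in the library labelled Paf1-G104R, against 1 in wild type, while paf1 held 7 reads in both. The library labelled Cdc73-G313R held 26 reads over paf1, at 13.7 times (5.81 to 37.5) the wild-type level, and 0 over cdc73. The library labelled Rot1-Q472Stop held 149 reads over cdc73, at 48.0 times (23.8 to 113) the wild-type level. In the library labelled Leo1-W157Stop leo1 was raised 30.4 times (23.3 to 40.3), and in that labelled Paf1-Q264Stop paf1 was raised 39.8 times (18.9 to 100.4). The library labelled Leo1Δ held 2 reads over leo1, against 62 in wild type, and that labelled Paf1Δ held 0 over paf1, against 7 in wild type. The interval of that last ratio reaches 3.31, so at this depth a loss of paf1 could not be seen. Strain names below are those of the labels.

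Transfer RNAs carry amino acids to the ribosome, and 5S rRNA is part of the large ribosomal subunit. RNA polymerase III makes both, and in tRNA genes the internal box B element binds the factor TFIIIC. Small nucleolar RNAs guide chemical modification of other RNAs: box C/D members direct methylation of ribose and box H/ACA members direct pseudouridylation. U3 acts in the maturation of ribosomal RNA and U4 is part of the spliceosome. Short fragments of all these RNAs are common in libraries selected by size.

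The ends of the facing RNAs are shown because they tell how far each element and its RNA share sequence and what kind of RNA lies there. All are RefSeq sequence of assembly ASM294v3 on the strand of the RNA, 5′ to 3′. At the SPRRNA.29 row, which is longer than the RNA, capitals mark the 16 bases of 5S rRNA that lie inside the non-coding RNA SPNCRNA.1366, the last of its 119.
SPRRNA.29 (5S rRNA, chr2:520392-520421, plus strand): acaacatgggaatcCGGGGTGCTGTAGGCT
The other 103 bases of that 5S copy lie before the element, so no read of 18 to 28 nt from it fits wholly inside. In the 4 tRNA genes, capitals mark box B, searched as GTTCNANNC.
SPBTRNAGLU.08 (tRNA-Glu, chr2:4107681-4107710, plus strand): gcggcggggGTTCGATTCcccctgacggag
SPATRNATYR.01 (tRNA-Tyr, chr1:1746518-1746547, plus strand): tggtcgctaGTTCGATTCtggctcaggaga
SPATRNAVAL.04 (tRNA-Val, chr1:3710739-3710768, minus strand): cggtcccaaGTTCGAGTCttggcacgatca
scn1 (tRNA-Ala, chr1:3157472-3157501, plus strand): tcgtcctggGTTCAATCCccagcgtgtcca
Box B was found in 156 of the 170 tRNA rows of the table (91.8%), and in 6.47% on their other strand. In 2 snoRNAs, capitals mark box C, searched as TGATGA in the first 30 bases.
sno52 (chr1:339613-339642, minus strand): attttgaaaaTGATGAaaataacgcggatg
snr79 (chr1:2705950-2705979, plus strand): actacgcTGATGAcactgtatttgatgctg
Box C was found in 18 of 55 snoRNA rows (32.7%), and in 1.82% on the other strand. Both snoRNAs also held box D, searched as CTGA in the last 30 bases, which 56.4% of snoRNA rows held, and 10.9% on the other strand. The same letters were in the last 30 bases of snR92 and snR96, which RefSeq names as H/ACA RNAs. In 3 snoRNAs, capitals mark ACA at 3 bases from the 3′ end, the tail of box H/ACA RNAs.
snR92 (chr2:2121329-2121358, plus strand): tattcaggactaaatcaacgactgACAaac
snR36 (chr2:1957286-1957315, minus strand): gagtggttgtaatttagtgcatgtACAtat
snR97 (chr1:170827-170856, plus strand): atcttgtaacgcagtttgtttatcACAtac
That tail was found in 9 of 55 snoRNA rows (16.4%) and in none on the other strand. RefSeq also names sno20 and snR96 as H/ACA RNAs, though their rows did not end in that tail, and gives no box class for sno52, snr79, snoR02 or snR191. A match describes letters and is no proof of a working site.

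The elements differed in how much of the RNA they cover. At 10 places the whole gene lies within the element. The dal81 3′ UTR covers bases 5 to 84 of tRNA-Tyr, the peg1 5′ UTR bases 1 to 63 of 72 in tRNA-Ala, the psd1 3′ UTR bases 79 to 164 of snR36 and the tim17 5′ UTR bases 1 to 173 of 211 in snR96. At snu3, which is U3, and snu4, which is U4, the rows in the table are longer than the RNAs in the reference, and the tif308 and met17 elements share 0 nt with the RNA itself. The overlaps that met the rule ran between 63 nt at peg1 and 223 nt at met17, and a threshold of 20 nt gave the same 29 elements.

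**Figure D1:**
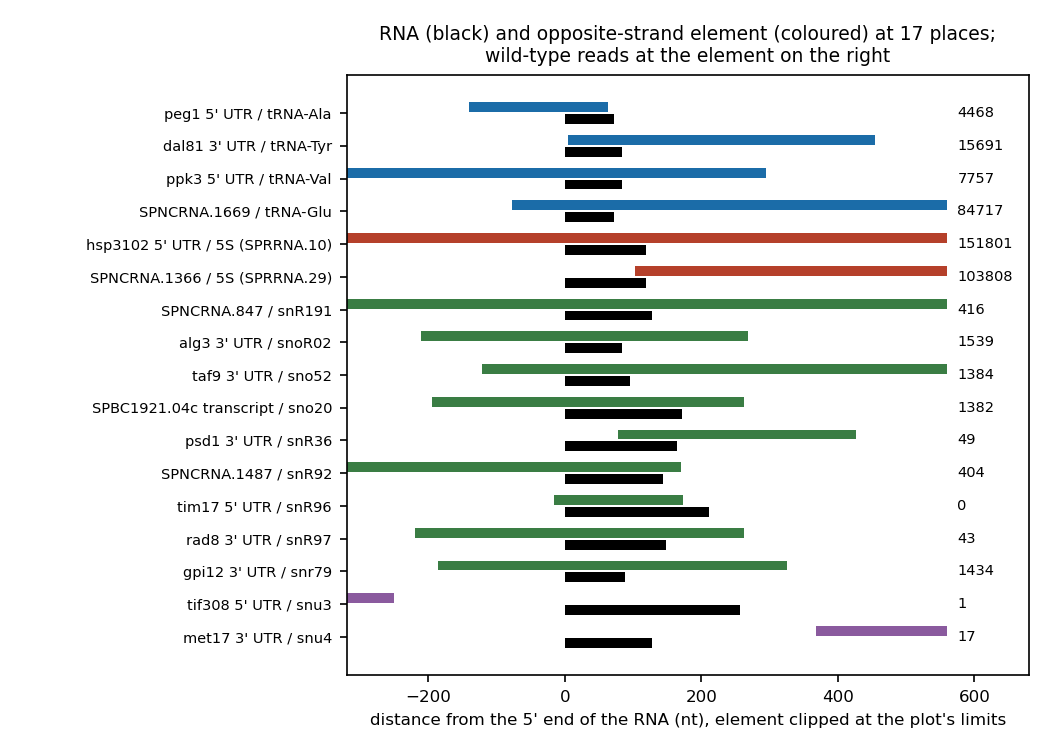
Position of each element (coloured: blue tRNA, red rRNA, green snoRNA, purple snRNA) along the RNA it faces (black), in nt from the RNA's 5′ end, with wild-type reads on the right. UTRs are drawn where a UTR and its transcript are both members. The tif308 and met17 elements do not reach their RNAs and hold 1 and 17 wild-type reads, while the hsp3102 5′ UTR spans the whole 5S rRNA and holds 151801.

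Elements facing an RNA gene held far higher levels than elements of the same classes elsewhere. Their median level ran between 7.37 and 8.78 in the 7 mutants, against 7.53 in wild type. For elements with the RNA gene on their own strand the median ran between 3.10 and 4.08 in the mutants, against 3.60 in wild type. For elements with no such gene it ran between 3 and 3.60 in the mutants, against 3.39 in wild type. In each of the 8 libraries between 65.5% and 72.4% of the facing elements reached a level of 5, which is 2 above the floor, against 4.08% to 22.4% of those on the same strand and 2.78% to 11.9% of those with no such gene. By RNA type the wild-type medians were 13.67 opposite rRNA, 10.56 opposite tRNA, 6.25 opposite snoRNA and 3.25 opposite snRNA genes, against 3.32, 3.64, 3.85 and 3.45 for elements on the same strand as rRNA, tRNA, snoRNA and snRNA genes, in that order.

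**Figure D2:**
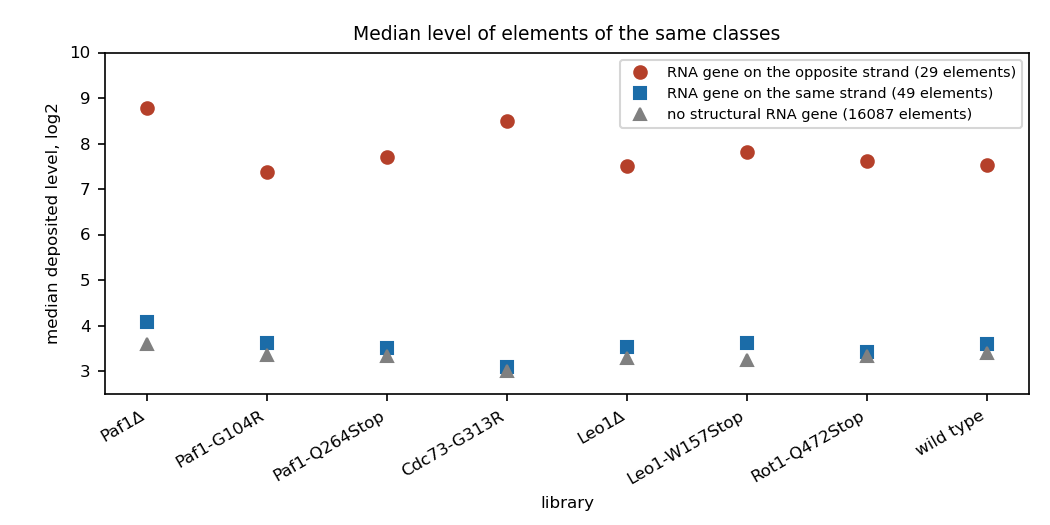
Median deposited log2 level of elements with a structural RNA gene on the opposite strand (red circles), on the same strand (blue squares) or with none (grey triangles), for the 7 mutant libraries and the wild type at the right. The red circles lie between 7.37 and 8.78, and all other medians lie at or below 4.08.

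The rows of the RNA genes themselves, on the other strand, held few reads. Summed over the 17 places, each counted once, the elements held between 136331 reads in Paf1Δ and 245049 in Rot1-Q472Stop, against 375463 in wild type. The 17 gene rows held between 36.8 reads in Cdc73-G313R and 315.2 in Paf1-G104R, against 468.0 in wild type. At the 5S gene SPRRNA.10 the wild type held 151801 reads in the hsp3102 5′ UTR and 0.51 in the gene row. Exceptions in wild type were snR96, with 84 reads in its row and 0 in the tim17 5′ UTR, snR36, with 103 in its row and 49 in the psd1 3′ UTR, and both snRNA rows, with 90.5 reads in all and 25 at their elements. The strand that the authors counted is not given in the sources used here, so fragments of the RNA and RNA antisense to it cannot be told apart from the table.

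Where a UTR and its transcript are both members, the reads sat in the UTR that faces the RNA at most places with many reads. SPNCRNA.1669, SPNCRNA.1366, SPNCRNA.847, SPNCRNA.1487 and the SPBC1921.04c transcript could not be split in this way. Where their reads lie relative to the RNA cannot be told, nor where reads lie within a UTR. The hsp3102 and taf9 UTRs are 60.9% and 59.5% of their transcripts' lengths, so a high share of reads says less there. The peg1 5′ UTR is 3.73% of its transcript's length and held 94.7% to 99.5% of its reads over the 8 libraries. The UTRs of hsp3102, dal81 and ppk3 held at least 99.1% of their transcripts' reads, and those of taf9, alg3 and gpi12 at least 95.5%. At psd1 the 3′ UTR held 52.4% to 96.6%. The rad8 3′ UTR, opposite snR97, held only 5.77% to 25.4%, so most rad8 reads lie away from the snoRNA. Places with few reads varied: the met17 3′ UTR held 17 of 23 reads in wild type (73.9%) and 0 of 1 in Cdc73-G313R, the tim17 5′ UTR 0 of 2 in wild type, and the tif308 5′ UTR 1 of 2 in wild type and 0 in the mutants.

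Reads opposite snoRNA and snRNA genes were whole numbers, within 0.05, in 105 of 113 and in all 21 of 21 values above 0. Opposite tRNA and rRNA genes only 5 of 56 and 1 of 24 were whole. The 9 snoRNA genes each occur once in the genome, and so does every 24-nt window in them. The 5S RNA has 23 exact copies, the tRNA-Val sequence 8, tRNA-Glu 6 and tRNA-Ala 2. The tRNA-Tyr gene occurs once, but 33 of its 61 windows occur at more than 1 place. How the authors assigned reads with several sites is not given in the sources used here, so at these places reads of the facing gene and of its copies cannot be told apart. A centromeric element, unknown_80, which faces another tRNA-Glu gene, SPCTRNAGLU.10, held 85607 wild-type reads where SPNCRNA.1669 held 84717.

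The elements took up a larger share of the recovered reads in every mutant library than in wild type, which the deposited levels did not show in each. Their summed level ratio to wild type was 1.69 (1.69 to 1.70) in Paf1Δ, 0.997 (0.992 to 1.001) in Paf1-G104R, 0.952 (0.948 to 0.956) in Paf1-Q264Stop, 2.43 (2.42 to 2.44) in Cdc73-G313R, 1.15 (1.14 to 1.15) in Leo1Δ, 1.805 (1.797 to 1.813) in Leo1-W157Stop and 1.72 (1.72 to 1.73) in Rot1-Q472Stop. Shares and level ratios use different totals. With each place counted once, the share was 11.4% in Paf1Δ, 7.05% in Paf1-G104R, 7.27% in Paf1-Q264Stop, 25.2% in Cdc73-G313R, 8.60% in Leo1Δ, 13.2% in Leo1-W157Stop and 13.1% in Rot1-Q472Stop, against 5.85% in wild type. The 2 places opposite rRNA genes made up most of this in all 8 libraries. Of their wild-type reads 59.4% lay at hsp3102 and 40.6% at SPNCRNA.1366, which holds only 16 bases of 5S rRNA. Where in SPNCRNA.1366 its reads lie cannot be told, so they are not shown to be 5S reads. Opposite rRNA genes the share was 7.67% in Paf1Δ, 5.65% in Paf1-G104R, 5.54% in Paf1-Q264Stop, 18.7% in Cdc73-G313R, 6.77% in Leo1Δ, 11.0% in Leo1-W157Stop and 11.1% in Rot1-Q472Stop, against 3.98% in wild type. Opposite tRNA genes it was 3.28% in Paf1Δ, 1.27% in Paf1-G104R, 1.57% in Paf1-Q264Stop, 6.02% in Cdc73-G313R, 1.70% in Leo1Δ, 2.08% in Leo1-W157Stop and 1.83% in Rot1-Q472Stop, against 1.76% in wild type. That share was above wild type in 4 mutants and below it in 3, while the deposited level ratio was above 1 only in Paf1Δ and Cdc73-G313R, and was 0.951 in Leo1-W157Stop and 0.801 in Rot1-Q472Stop. Opposite snoRNA genes the share was 0.481% in Paf1Δ, 0.131% in Paf1-G104R, 0.153% in Paf1-Q264Stop, 0.569% in Cdc73-G313R, 0.137% in Leo1Δ, 0.151% in Leo1-W157Stop and 0.205% in Rot1-Q472Stop, against 0.109% in wild type, and opposite snRNA genes it was 0.00151% or less in each library. Depth and rRNA moved with these shares: wild type had the most reads, and the whole rRNA class took 8.54% to 60.0% of the linear levels in the mutants, highest in Cdc73-G313R, against 4.28% in wild type. Their part in the shares was not tested.

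**Figure D3:**
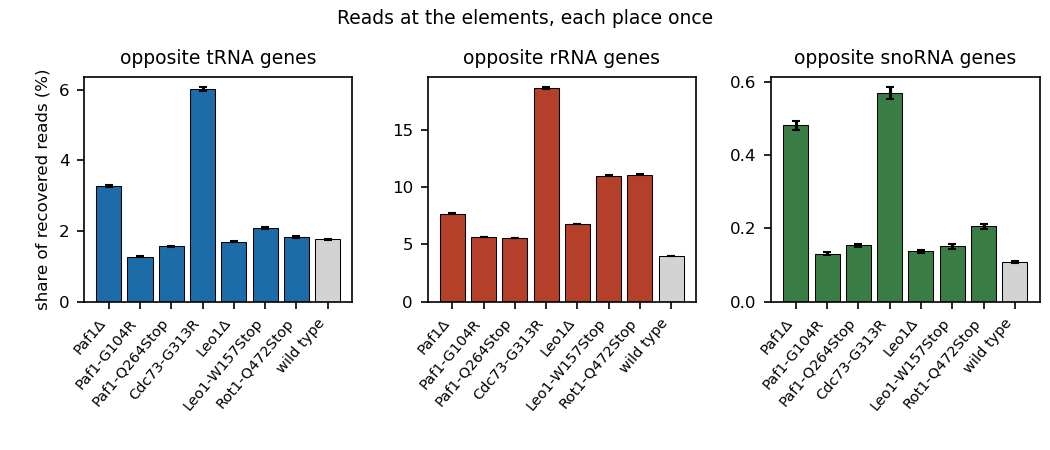
Share of recovered reads (%) at elements opposite tRNA, rRNA and snoRNA genes, each place once, in the 7 mutant libraries (coloured) and wild type (grey), with exact 95% intervals for counting error. Cdc73-G313R is highest in all 3 panels, at 6.02%, 18.7% and 0.569%, and all mutants are above wild type in the rRNA and snoRNA panels.

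Counted by element, a difference of at least 1 between a mutant and wild type was asked of those with a level of 5 or more in the higher library. In Cdc73-G313R 12 of 21 elements past this filter were higher and 0 lower, where 3.92% of all 2169 elements past the filter were higher and 74.9% lower. In Paf1Δ 9 of 21 were higher and 0 lower, where 22.3% of all elements were higher and 19.8% lower. In Rot1-Q472Stop 2 of 20 were higher and 2 lower, beside 8.37% and 26.3% of all elements, so the higher count is near that of elements in general. In Leo1-W157Stop 3 of 20 were higher and 1 lower, beside 8.73% and 32.9%, and the 3 higher ones are those opposite 5S rRNA genes, at 2 places. In Leo1Δ (5.08% and 29.6% of all), Paf1-G104R (4.58% and 9.79%) and Paf1-Q264Stop (3.8% and 12.6%) none of 20 passed in either direction. Since several elements share reads, these counts are not of separate places. Among the higher calls, the psd1 transcript in Cdc73-G313R (4.02 in wild type, 5.49 in the mutant) passed the filter through the mutant alone. So did the met17 3′ UTR in Paf1Δ (4.19 in wild type, 5.21 in the mutant), so the filter itself favoured these calls. With each place counted once, Cdc73-G313R had 8 higher and Paf1Δ 5. Leo1-W157Stop then had 2 higher and 1 lower, and Rot1-Q472Stop 1 higher and 1 lower. The shares of all elements beside these are those given above.

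All elements together shifted between libraries, which bears on each difference below. Over all elements past the filter the median difference was 0.01 in Paf1Δ, -0.11 in Paf1-G104R, -0.31 in Paf1-Q264Stop, -2.00 in Cdc73-G313R, -0.70 in Leo1Δ, -0.48 in Leo1-W157Stop and -0.39 in Rot1-Q472Stop. Over the facing elements past the filter it was 0.83 in Paf1Δ, -0.16 in Paf1-G104R, -0.09 in Paf1-Q264Stop, 1.10 in Cdc73-G313R, 0.03 in Leo1Δ, 0.21 in Leo1-W157Stop and 0.28 in Rot1-Q472Stop. They lay above the median of all elements in each mutant but Paf1-G104R. No element passed 1 in the same direction in all 7 mutants.

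**Figure D4:**
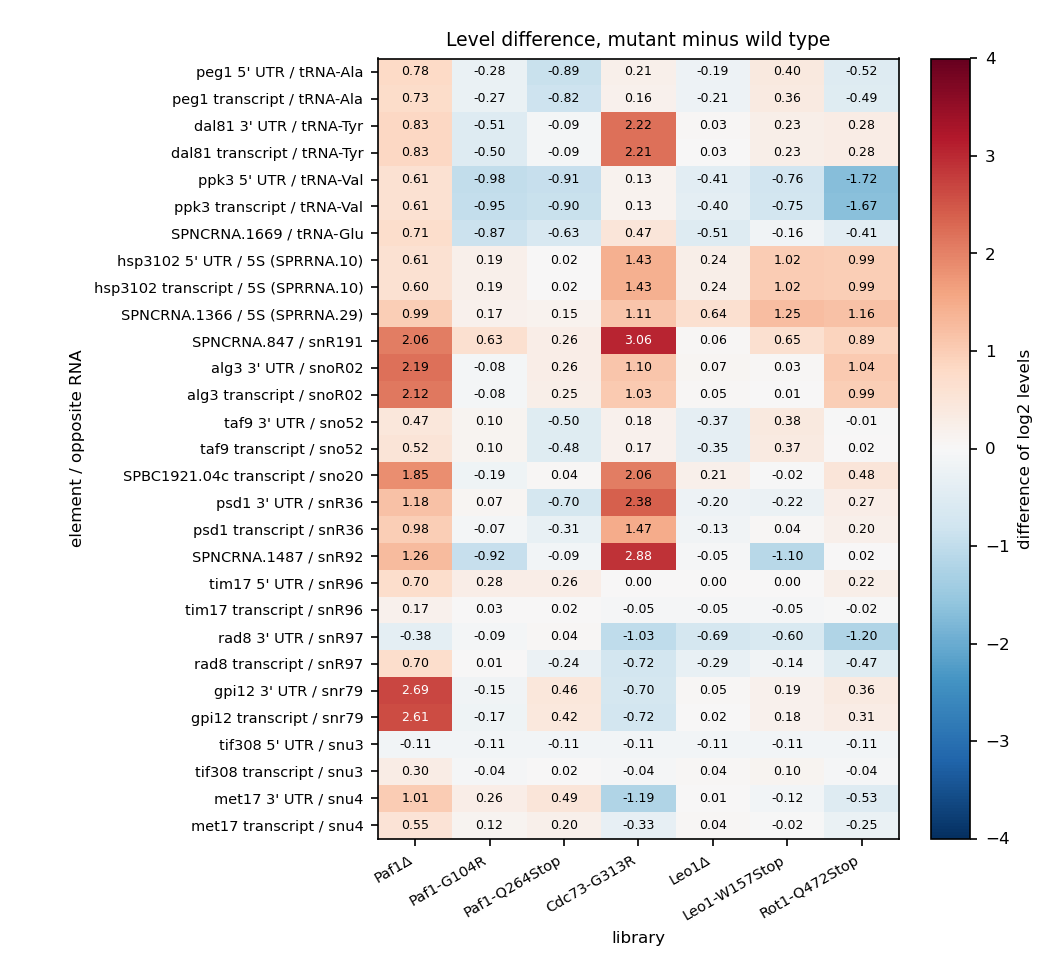
Difference of the log2 level, mutant minus wild type, for the 29 elements (rows, each named with the RNA it faces) in the 7 mutant libraries (columns). The Cdc73-G313R column is highest at SPNCRNA.847 (3.06) and the Paf1Δ column at the gpi12 3′ UTR (2.69). Both places opposite 5S rRNA genes are above 0 in all 7 columns. After quantile normalization this does not hold for the hsp3102 5′ UTR in Leo1Δ (-0.48), though it does for the hsp3102 transcript (0.65).

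Opposite 5S rRNA genes the deposited level was above wild type in all 7 mutants at both places, by little in some, but after quantile normalization the hsp3102 5′ UTR was below wild type in Leo1Δ (-0.48) and level with it in Paf1-G104R, Paf1-Q264Stop and Rot1-Q472Stop. The hsp3102 transcript, which holds the same reads, was above wild type in all 7 mutants under that scaling, by 0.65 in Leo1Δ and Paf1-Q264Stop and 1.03 in Paf1-G104R and Rot1-Q472Stop. Both elements are among the highest levels in each library, where that scaling leaves only steps between ranks. Its values here cannot show whether or how far a level changed. The hsp3102 5′ UTR (chromosome 1, 148936 to 150331; hsp3102 encodes a glyoxalase III) had levels of 14.99 in Paf1Δ, 14.58 in Paf1-G104R, 14.41 in Paf1-Q264Stop, 15.82 in Cdc73-G313R, 14.62 in Leo1Δ, 15.41 in Leo1-W157Stop and 15.38 in Rot1-Q472Stop, against 14.39 in wild type. SPNCRNA.1366 (chromosome 2, 520406 to 522725) had levels of 14.10 in Paf1Δ, 13.28 in Paf1-G104R, 13.26 in Paf1-Q264Stop, 14.21 in Cdc73-G313R, 13.75 in Leo1Δ, 14.36 in Leo1-W157Stop and 14.27 in Rot1-Q472Stop, against 13.11 in wild type. At both places wild type was the lowest of the 8 libraries, with Paf1-Q264Stop within 0.15 of it, while Cdc73-G313R was highest at hsp3102 and Leo1-W157Stop at SPNCRNA.1366. The hsp3102 transcript, which shares these reads, ranged over 13.69 to 15.10 with a median of 14.28 in the 7 mutants, against 13.67 in wild type. The summed level ratio to wild type was 1.64 (1.63 to 1.65) in Paf1Δ, 1.14 (1.13 to 1.14) in Paf1-G104R, 1.04 (1.03 to 1.04) in Paf1-Q264Stop, 2.56 (2.55 to 2.57) in Cdc73-G313R, 1.28 (1.27 to 1.28) in Leo1Δ, 2.12 (2.11 to 2.13) in Leo1-W157Stop and 2.05 (2.04 to 2.06) in Rot1-Q472Stop. Its median was 1.64 over the 7 mutants, and 1.46 without the 3 libraries in which the raised Paf1 complex gene was not the labelled one. With each place once, the ratio ran between 1.05 in Paf1-Q264Stop and 2.48 in Cdc73-G313R.

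The 2 places opposite 5S rRNA genes did not keep a fixed ratio, and the reads at SPNCRNA.1366 are not shown to be 5S reads. Reads at SPNCRNA.1366 were, as a share of those at the hsp3102 5′ UTR, 89.3% in Paf1Δ, 67.3% in Paf1-G104R, 75.0% in Paf1-Q264Stop, 54.6% in Cdc73-G313R, 90.5% in Leo1Δ, 80.0% in Leo1-W157Stop and 77.1% in Rot1-Q472Stop, against 68.4% in wild type. Cdc73-G313R was the lowest and the deletions of Leo1 and Paf1 were the highest. The bases of 5S rRNA inside the 2 elements differ, as printed above, and how the authors assigned reads that cross an element's border is not given in the sources used here.

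Opposite tRNA genes the mutants went in both directions, and the 4 places differed. The summed level ratio to wild type was 1.66 (1.65 to 1.68) in Paf1Δ, 0.594 (0.588 to 0.600) in Paf1-G104R, 0.693 (0.687 to 0.700) in Paf1-Q264Stop, 2.07 (2.05 to 2.09) in Cdc73-G313R, 0.790 (0.782 to 0.798) in Leo1Δ, 0.951 (0.940 to 0.962) in Leo1-W157Stop and 0.801 (0.793 to 0.810) in Rot1-Q472Stop. The median ratio was 0.801, but it turned to 1.29 when each library was shifted by the median difference of all elements. No direction therefore holds under every scaling. After quantile normalization the median ratio was 1.84, but there the highest levels move in steps between ranks. SPNCRNA.1669 then differed from wild type by 1.91 in both Paf1Δ and Cdc73-G313R, where its deposited differences were 0.71 and 0.47. The 1.84 thus cannot show how far the ratio changed. Without the 3 libraries that did not match their labels the median ratio of deposited levels was 0.870. With each place once, the summed ratio ran between 0.576 (0.570 to 0.583) in Paf1-G104R and 1.81 (1.79 to 1.83) in Cdc73-G313R. In Paf1Δ and Cdc73-G313R all 4 places lay above wild type, and in Paf1-G104R and Paf1-Q264Stop all 4 lay below it.

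The tRNA-Glu place held most of these reads. SPNCRNA.1669 (chromosome 2, 4107562 to 4109819) had levels of 13.57 in Paf1Δ, 11.98 in Paf1-G104R, 12.23 in Paf1-Q264Stop, 13.33 in Cdc73-G313R, 12.34 in Leo1Δ, 12.70 in Leo1-W157Stop and 12.44 in Rot1-Q472Stop, against 12.85 in wild type. It was above wild type in 2 mutants and below it in 5, and held 57.6% of the reads at the 4 tRNA places in Cdc73-G313R, with 69.7% to 74.4% in the remaining mutants, against 75.1% in wild type. The dal81 3′ UTR (chromosome 1, 1746468 to 1746917; dal81 encodes a transcription factor), opposite tRNA-Tyr, had levels of 13.58 in Paf1Δ, 12.24 in Paf1-G104R, 12.66 in Paf1-Q264Stop, 14.96 in Cdc73-G313R, 12.78 in Leo1Δ, 12.98 in Leo1-W157Stop and 13.03 in Rot1-Q472Stop, against 12.75 in wild type. Cdc73-G313R was the highest and the one mutant past 1, at 4.65 (4.55 to 4.75) times the wild-type level, and tRNA-Tyr then made up 35.7% of reads at the tRNA places, against 13.9% in wild type. Its transcript passed 1 in Cdc73-G313R too, with a difference of 2.21.

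Opposite tRNA-Val the ppk3 5′ UTR (chromosome 1, 3710527 to 3711545; ppk3 encodes a protein with a kinase domain) had levels of 11.17 in Paf1Δ, 9.58 in Paf1-G104R, 9.64 in Paf1-Q264Stop, 10.69 in Cdc73-G313R, 10.15 in Leo1Δ, 9.80 in Leo1-W157Stop and 8.84 in Rot1-Q472Stop, against 10.56 in wild type. Rot1-Q472Stop was the lowest, at 0.301 (0.281 to 0.322) times wild type, and the ppk3 transcript was lower there by a difference of -1.67. These were the 2 lower calls of that library, and relative to the median of all elements the 5′ UTR was at -1.33. Opposite tRNA-Ala, which the table names scn1, the peg1 5′ UTR (chromosome 1, 3157289 to 3157492; peg1 encodes a microtubule-binding CLASP protein) had levels of 12.86 in Paf1Δ, 11.80 in Paf1-G104R, 11.18 in Paf1-Q264Stop, 12.29 in Cdc73-G313R, 11.89 in Leo1Δ, 12.48 in Leo1-W157Stop and 11.55 in Rot1-Q472Stop, against 12.08 in wild type. No mutant passed 1 at peg1, and its transcript ranged over 6.63 to 8.18 with a median of 7.25 in the 7 mutants, against 7.45 in wild type.

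**Figure D5:**
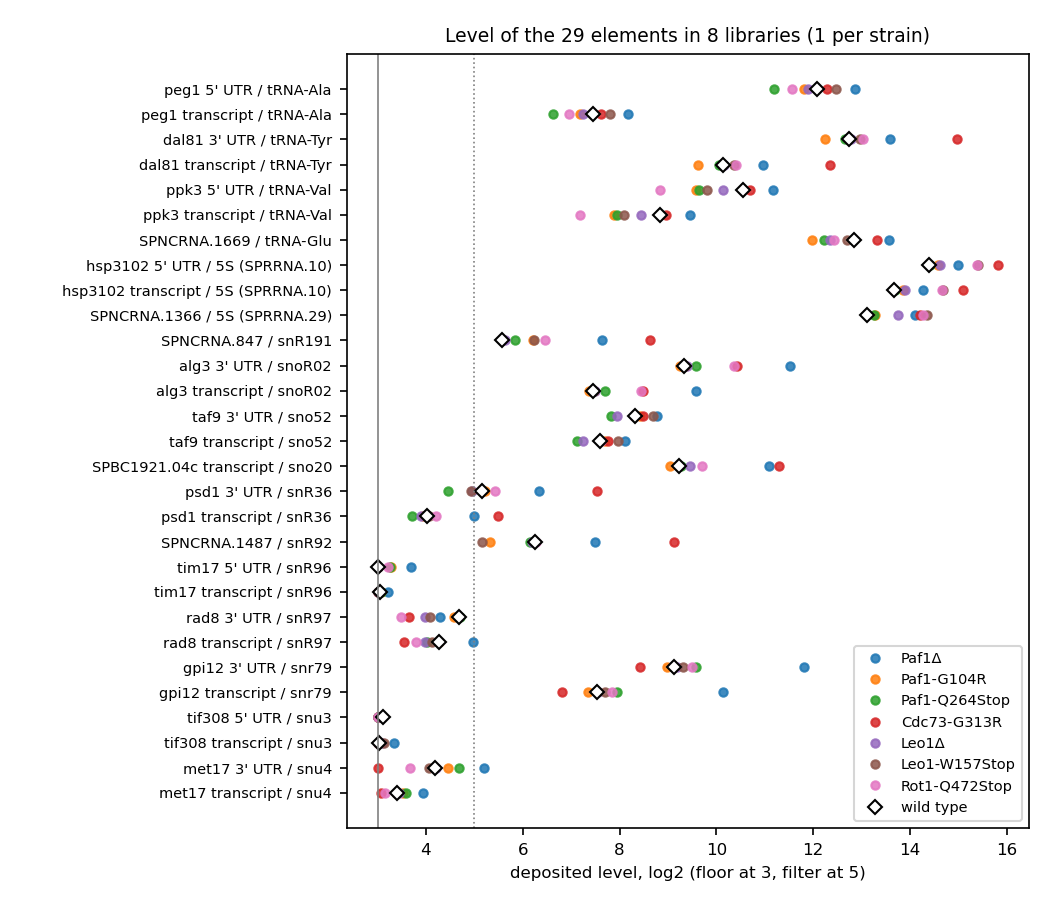
Deposited log2 level of the 29 elements (rows, named with the RNA they face) in the 7 mutant libraries (coloured points) and wild type (white diamonds). The solid line marks the floor of 3 and the dotted line the level of 5 asked of compared elements. The elements opposite 5S rRNA genes lie above 13 in every library, and the elements at snR96 and snu3 lie at or near the floor.

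Opposite snoRNA genes Paf1Δ and Cdc73-G313R stood above the other mutants, with their largest differences at different snoRNAs. The summed level ratio to wild type was 4.02 (3.91 to 4.13) in Paf1Δ, 0.964 (0.935 to 0.994) in Paf1-G104R, 1.08 (1.04 to 1.11) in Paf1-Q264Stop, 2.22 (2.16 to 2.29) in Cdc73-G313R, 0.973 (0.941 to 1.01) in Leo1Δ, 1.11 (1.07 to 1.15) in Leo1-W157Stop and 1.43 (1.39 to 1.48) in Rot1-Q472Stop. The median over the 7 mutants was 1.11. With each place once, the ratio was 3.92 (3.79 to 4.06) in Paf1Δ and 2.77 (2.67 to 2.87) in Cdc73-G313R. In Paf1Δ 8 of the 10 elements past the filter were higher, beside 22.3% of all elements, and in Cdc73-G313R 7 of 11 were, beside 3.92%. In Rot1-Q472Stop 1 of 10 was, the alg3 3′ UTR, beside 8.37%, and in the other mutants none was. The psd1 transcript, among the higher ones in Cdc73-G313R, passed the filter through that library alone (4.02 in wild type, 5.49 there). Every 24-nt window of these snoRNA genes occurs once in the genome, while some or all windows of the facing tRNA and 5S genes occur at more than 1 place.

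The 2 places with the largest differences in Paf1Δ were those of snr79 and snoR02. The gpi12 3′ UTR (chromosome 1, 2705764 to 2706275; gpi12 acts in GPI anchor synthesis), opposite snr79, had levels of 11.82 in Paf1Δ, 8.98 in Paf1-G104R, 9.59 in Paf1-Q264Stop, 8.43 in Cdc73-G313R, 9.18 in Leo1Δ, 9.32 in Leo1-W157Stop and 9.49 in Rot1-Q472Stop, against 9.13 in wild type. Paf1Δ was the highest at 6.51 (6.08 to 6.98) times wild type, and Cdc73-G313R the lowest at 0.609 (0.528 to 0.699) times. Relative to the median of all elements in that library, which was -2.00, the Cdc73-G313R value was 1.30 higher. The alg3 3′ UTR (chromosome 1, 2627804 to 2628282; alg3 encodes a mannosyltransferase), opposite snoR02, had levels of 11.52 in Paf1Δ, 9.24 in Paf1-G104R, 9.58 in Paf1-Q264Stop, 10.42 in Cdc73-G313R, 9.40 in Leo1Δ, 9.36 in Leo1-W157Stop and 10.37 in Rot1-Q472Stop, against 9.33 in wild type. It was higher by 1 or more in Paf1Δ, at 4.61 (4.29 to 4.96) times wild type, in Cdc73-G313R and in Rot1-Q472Stop. The transcripts of the 2 genes, which share these reads, differed by 2.61 and 2.12 in Paf1Δ.

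The largest differences in Cdc73-G313R were at the elements opposite snR191 and snR92, whose reads cannot be placed relative to the snoRNA. SPNCRNA.847 (chromosome 1, 2734065 to 2736123), opposite snR191, had levels of 7.64 in Paf1Δ, 6.21 in Paf1-G104R, 5.84 in Paf1-Q264Stop, 8.64 in Cdc73-G313R, 5.64 in Leo1Δ, 6.23 in Leo1-W157Stop and 6.47 in Rot1-Q472Stop, against 5.58 in wild type. It held 1101 reads in Cdc73-G313R, against 416 in wild type, at 9.79 (8.74 to 11.0) times the level, and it was above wild type in all 7 mutants, though by 0.06 in Leo1Δ, where the interval of the ratio spans 1. SPNCRNA.1487 (chromosome 2, 2120212 to 2121384), opposite snR92, had levels of 7.50 in Paf1Δ, 5.33 in Paf1-G104R, 6.15 in Paf1-Q264Stop, 9.12 in Cdc73-G313R, 6.20 in Leo1Δ, 5.15 in Leo1-W157Stop and 6.27 in Rot1-Q472Stop, against 6.25 in wild type. Here Cdc73-G313R was at 8.08 (7.18 to 9.12) times wild type and Leo1-W157Stop at 0.405 (0.291 to 0.552) times, with 883 and 45 reads against 404 in wild type, and the Leo1-W157Stop difference was -1.10, or -0.62 relative to the median of all elements. The transcript SPBC1921.04c (chromosome 2, 2410996 to 2411452), opposite sno20, had levels of 11.09 in Paf1Δ, 9.05 in Paf1-G104R, 9.28 in Paf1-Q264Stop, 11.30 in Cdc73-G313R, 9.45 in Leo1Δ, 9.22 in Leo1-W157Stop and 9.71 in Rot1-Q472Stop, against 9.24 in wild type. It was at 3.65 (3.37 to 3.96) times wild type in Paf1Δ and 4.21 (3.91 to 4.53) times in Cdc73-G313R.

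The other snoRNA places changed less or held few reads. Opposite sno52 the taf9 3′ UTR (chromosome 1, 338884 to 339763; taf9 encodes a subunit of SAGA and TFIID) had levels of 8.78 in Paf1Δ, 8.41 in Paf1-G104R, 7.82 in Paf1-Q264Stop, 8.49 in Cdc73-G313R, 7.95 in Leo1Δ, 8.69 in Leo1-W157Stop and 8.30 in Rot1-Q472Stop, against 8.31 in wild type. No mutant passed 1 there, and the taf9 transcript likewise stayed within 0.52 of wild type. The psd1 3′ UTR (chromosome 2, 1957023 to 1957371; psd1 encodes phosphatidylserine decarboxylase), opposite snR36, ranged over 4.45 to 7.54 with a median of 5.23 in the 7 mutants, against 5.16 in wild type. It was higher by 1.18 in Paf1Δ, with 27 reads, and by 2.38 in Cdc73-G313R, with 85 reads, against 49 in wild type. The psd1 transcript had a difference of 1.47 in Cdc73-G313R. The rad8 3′ UTR, opposite snR97, and the tim17 5′ UTR, opposite snR96, lie outside the naming rule and are given so that every element is accounted for. They ranged over 3.48 to 4.71 with a median of 4.08 in the 7 mutants, against 4.68 in wild type, and over 3 to 3.70 with a median of 3.22 in the 7 mutants, against 3 in wild type. The rad8 transcript ranged over 3.54 to 4.97 with a median of 4.02 in the 7 mutants, against 4.26 in wild type, and that of tim17 over 3 to 3.21 with a median of 3.03 in the 7 mutants, against 3.05 in wild type, none reaching 5.

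When the snoRNAs are set side by side by their letters, which was done after their values were seen, the 2 with box C differed from each other: in Paf1Δ snr79 had a difference of 2.69 and sno52 one of 0.47. In Cdc73-G313R neither passed 1, with -0.70 and 0.18. Of those RefSeq names as H/ACA, SPNCRNA.1487 at snR92, the psd1 3′ UTR at snR36 and SPBC1921.04c at sno20 passed 1 in both Paf1Δ and Cdc73-G313R. So did those at 2 snoRNAs with neither a RefSeq class nor box C, with 2.19 in Paf1Δ and 1.10 in Cdc73-G313R for the alg3 3′ UTR at snoR02, and 2.06 and 3.06 for SPNCRNA.847 at snR191. The H/ACA places at snR97 and snR96 did not reach a level of 5.

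Opposite snRNA rows, levels were near the floor. The met17 3′ UTR (chromosome 2, 466923 to 467247; met17 encodes homocysteine synthase), beside snu4, had levels of 5.21 in Paf1Δ, 4.45 in Paf1-G104R, 4.69 in Paf1-Q264Stop, 3 in Cdc73-G313R, 4.20 in Leo1Δ, 4.07 in Leo1-W157Stop and 3.67 in Rot1-Q472Stop, against 4.19 in wild type. In Paf1Δ its difference of 1.01 passed the threshold on 10 reads, against 17 in wild type. The tif308 5′ UTR (chromosome 1, 988076 to 988396; tif308 encodes a subunit of initiation factor eIF3), beside snu3, was at the floor in all 7 mutants and held 1 read in wild type. The met17 transcript ranged over 3.07 to 3.95 with a median of 3.44 in the 7 mutants, against 3.40 in wild type, and that of tif308 over 3 to 3.34 with a median of 3.06 in the 7 mutants, against 3.04 in wild type. None of these 4 elements overlaps its RNA as annotated in the reference.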

How the data were processed

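Per the submitters' processing notes, the authors used Bowtie 0.9.9.1 and CASAVA 1.8. The sources used here do not give the build, the annotation, the counted strand or the counting rule. For 8 libraries the authors deposited log2 values of 17962 elements. The lowest value was 3 everywhere, and linear values less 8 summed to 907489 in each library, so the values were read as log2(n + 8), with n proportional to reads per length. The value of 1 read was then found per library, and 79.7% to 89.3% of elements above 0 then held a whole number of reads, within 0.05. Recovered reads are estimates, and no model was fitted to them. For the Clopper-Pearson intervals they were rounded and treated as binomial counts, also opposite tRNA and rRNA genes, where few were whole.

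The largest ends in the table equal the chromosome lengths of assembly ASM294v3 (5579133, 4539804 and 2452883). Of the tRNA rows 169 of 170 had the coordinates of the reference, of rRNA rows 47 of 48, of snoRNA rows 53 of 55 and of snRNA rows 0 of 7. Differences are mutant minus wild type. Level ratios used reads times the value of 1 read, and their Clopper-Pearson intervals take the sum of both libraries' reads as given. Summed ratios count a read once for each element that holds it, unless given once per place, so their intervals are too narrow. Named were all elements opposite tRNA, rRNA and snRNA rows, the 10 of highest mean level opposite snoRNA rows, and any past 1 in the same direction in all 7 mutants. The elements and lists were chosen with earlier results of these data known. Alternatives changed the scaling, filter, offset, overlap and set of elements or libraries. Computation used Python 3.11.15, numpy 2.4.6, pandas 2.3.3, scipy 1.17.1 and matplotlib 3.10.9, and the scripts were tested on simulated data.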

Additional observations from a re-analysis of the deposited data

How the results depend on the processing

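No paired analysis was possible because each strain has 1 library, and for the same reason no replicate could be left out. The rRNA and snoRNA ratios stayed above 1 under every alternative run. The tRNA ratio of 0.801 turned to 1.29 after each library was shifted by the median difference of all elements and to 1.84 after quantile normalization. The first takes out, by construction, the shift of all elements, and the second leaves only steps between ranks at the highest levels. The tRNA ratio was 0.710 with only elements that hold the whole RNA gene, 0.782 with each place once and 0.870 from linear levels. It was 0.922 without the element of most wild-type reads. It was 0.870 without the 3 libraries whose raised Paf1 complex gene was not the labelled one, a choice made after seeing the data. The rRNA ratio of 1.64 was 2.08 after the shift, 1.52 with whole genes, 1.71 once per place, 1.62 from linear levels, 1.71 without the top element and 1.46 without those 3 libraries. The snoRNA ratio of 1.11 was 1.58 after the shift and 1.43 after quantile normalization. With whole genes no element opposite an snRNA row remained.

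Counts of higher elements after quantile normalization were 14 in Paf1Δ (of 20 tested, beside 21.9% of all elements under that scaling), 2 of 19 in Paf1-G104R (5.93%), 2 of 19 in Paf1-Q264Stop (6.37%), 19 of 21 in Cdc73-G313R (34.2%), 2 of 20 in Leo1Δ (10.7%), 6 of 19 in Leo1-W157Stop (17.1%) and 9 of 20 in Rot1-Q472Stop (13.2%). After the median shift they were 1 of 20 in Leo1Δ (9.76%), 21 of 21 in Cdc73-G313R (25.2%) and 6 of 20 in Rot1-Q472Stop (13.8%). Both scalings gave 0 lower in Leo1-W157Stop, beside 20.5% of all elements after the shift and 20.9% after quantile normalization. So did an offset of 32 in the logarithm, beside 17%. With each place counted once, Cdc73-G313R had 8 higher (beside 3.92% of all elements) and Paf1Δ 5 (22.3%). Leo1-W157Stop then had 2 higher (8.73%) and 1 lower (32.9%), and Rot1-Q472Stop 1 higher (8.37%) and 1 lower (26.3%). These shares are over elements past the filter, which not all 17 places passed. With whole genes, which 16 elements hold, not all of them past the filter, Cdc73-G313R had 7 higher and Rot1-Q472Stop 1, beside 3.92% and 8.37% of all elements. Without the filter Cdc73-G313R had 2 of 29 lower, beside 17% of all elements. With an offset of 1 Paf1-G104R had 1 of 20 lower, beside 14.2%. An overlap of 20 nt, a filter at 3 above the floor, and leaving out elements that miss the annotated RNA, added after seeing the data, moved no count by over 1.5 times. The cause of these changes was not tested, and at the highest levels quantile normalization leaves only steps between ranks. Depth limits the snRNA and snR96 places, where all libraries held fewer than 30 reads.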

Other observations

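The centromeric repeat element unknown_80 (chromosome 3, 1097064 to 1101930), which is outside the classes described above, lies opposite the tRNA-Glu gene SPCTRNAGLU.10. Its log2 level was 12.46 in Paf1Δ, 10.88 in Paf1-G104R, 11.14 in Paf1-Q264Stop, 12.22 in Cdc73-G313R, 11.25 in Leo1Δ, 11.60 in Leo1-W157Stop and 11.34 in Rot1-Q472Stop, against 11.76 in wild type. Paf1Δ and Cdc73-G313R were above wild type and the other 5 mutants below it.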
